A study of Mus musculus with 9 samples.

Results

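The genes described here encode enzymes that attach a polar group to small molecules, and carboxylesterases and related enzymes that act on the same compounds, in the kidney of mice with an obstructed bile duct. They were taken from rows of the array that carry 1 gene symbol, by a symbol that begins as those of the UDP-glucuronosyltransferases (Ugt1 to Ugt3), the cytosolic sulfotransferases (Sult), the glutathione S-transferases of the alpha, kappa, mu, omega, pi and theta classes (Gst), the carboxylesterases (Ces), the flavin-containing monooxygenases (Fmo) or the epoxide hydrolases (Ephx). This rule found 78 genes of 22180 measured, namely 10 Ugt, 21 Sult, 18 Gst, 19 Ces, 6 Fmo and 4 Ephx genes, and each was measured by 1 row. The rule itself uses no expression value. It also takes Ces2d-ps, which by its symbol is a pseudogene and is counted with the carboxylesterases. The Ugt1a genes, Gsta1, Gsta2 and Gstm5 lay on rows shared by several symbols and are not among the 78.

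The study measured kidney RNA on 9 arrays, with 3 arrays in each of 3 groups. Mice that received norUDCA (norursodeoxycholic acid, a bile acid whose side chain is shortened by a carbon) in their feed for 5 days before their common bile duct was ligated for 3 weeks are called norUDCA-fed CBDL (arrays norUDCA_CBDL_172, norUDCA_CBDL_175 and norUDCA_CBDL_179). Mice with the duct ligated for 3 weeks and no stated feeding are called CBDL (CBDL_164, CBDL_165 and CBDL_170), and mice 3 weeks after a sham operation are called sham (sham_158, sham_159 and sham_160). The labels give no strain, sex, age or dose, leave unsaid if feeding continued once the duct was ligated and if each array holds 1 animal, and include no sham group fed norUDCA. If the arrays of a group are not from separate animals, the p-values measure technical spread only.

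Conjugation makes lipophilic compounds, among them bile acids, steroids and drugs, more soluble in water, so that bile and urine can carry them away. Glucuronosyltransferases take a sugar from a UDP-sugar, sulfotransferases take sulfate from PAPS, and glutathione S-transferases join glutathione to reactive electrophiles. Flavin-containing monooxygenases oxidise nitrogen and sulfur, epoxide hydrolases open epoxides to diols, and carboxylesterases cleave ester, amide and acylglycerol bonds. In the kidney many of these enzymes are found in the proximal tubule, which takes up organic anions from blood and secretes their conjugates into urine.

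Signals are log2 values normalized by the authors with RMA. The precision is set by the 3 arrays a group, and over all genes the standard error of a group difference had a median of 0.136. A gene is said to have risen or fallen where limma, fitted on all 9 arrays, gave a two-sided p under 0.05 after Benjamini-Hochberg adjustment over the 22180 genes, and an adjusted p below comes from that fit unless it is said to be without an array, when the fit was repeated on the remaining arrays. With 3 arrays a group, the smallest two-sided p of an exact permutation test is 0.1. Changes are differences of group means on the log2 scale with their standard error (SE). The 33.3% of all genes with the lowest mean signal lay under 5.2, where signal above background was not shown, and 36 of the 78 members lay there (16 Sult, 9 Ces, 5 Ugt, 3 Gst, 2 Fmo and 1 Ephx). A comparison of signals between genes is not made, since each row has its own probes. Whether a row also reads a close relative was not tested, and these families hold many.

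The tissue was checked by markers. Umod, the uromodulin of the thick ascending limb, lay between 12.47 and 12.87 on the 9 arrays, and Cdh16, a kidney cadherin, between 11.35 and 11.53. Aqp2, the water channel of the collecting duct, lay between 8.23 and 10.12. Of these 6 kidney markers the other 3 were also bright but fell in CBDL against sham, namely Kap by 1.84 (adjusted p = 0.0065), the phosphate transporter gene Slc34a1 by 0.99 (adjusted p = 0.00101) and the salt transporter gene Slc12a3 by 0.45 (adjusted p = 0.0383) on the log2 scale. The Slc12a3 call ended without sham_158 (adjusted p = 0.106), and also without sham_159, sham_160 or CBDL_165. Sham_159 and CBDL_165 stood apart from the other arrays on the second principal component over all genes, which held 13% of the variance. The counts of members without both are given with the alternatives at the end. Over the 78 members, arrays of the same group correlated between 0.9615 and 0.9962 (Pearson, across genes, which are not independent replicates). Arrays of different groups correlated between 0.8773 and 0.9903, so the 2 ranges overlapped. Y-linked transcripts were lower on norUDCA_CBDL_172 than on the other 8 arrays (Kdm5d 6.46, Eif2s3y 7.64 and Uty 7.66). Xist, the transcript of the inactive X chromosome, was dim on all 9 arrays (between 3.66 and 4.39), and lowest on norUDCA_CBDL_172. The reason for the lower Y-linked signals was not tested.

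In CBDL against sham, which asks what obstruction of the bile duct does to these transcripts in the kidney, 29 of the 78 members fell, 6 rose and 43 did not pass. Those that fell included 10 of 19 carboxylesterases, 6 of 10 Ugt genes and 4 of 6 Fmo genes, and the 6 that rose were Gsto1, Gstp3, Sult1a1, Gsta4, Sult4a1 and Ephx1. Over all genes 21.8% were called, 11.5% lower and 10.3% higher, and over the members 44.9% were. The members' median change was -0.28, against -0.06 over all genes, and 17 members fell and 3 rose at least 2-fold. Of all 22180 genes, 669 fell and 686 rose at least 2-fold. The arrays of the 2 groups did not overlap for 43 members, 36 lower and 7 higher, while 35.6% of all genes showed no overlap. An unadjusted p under 0.05 was reached by 42 members and by 33.3% of all genes. Of the 36 dim members, 6 fell and 1 rose.

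Leaving out each of the 6 CBDL and sham arrays in turn kept the call of 23 of these 35 members, and the lowered members numbered between 21 and 27. The 12 that lost their call at least once were Ces1a, Ces2b, Ces2d-ps, Ces2g, Ces3a, Ephx1, Gstt1, Gstt2, Gstt3, Gstt4, Sult1b1 and Sult2a3, with a highest adjusted p of 0.14. Between 5 calls (without CBDL_170) and 9 calls (without CBDL_165 or sham_159) were lost at a time. The 3 CBDL arrays were unequal: of the 29 members that fell, CBDL_165 was the lowest CBDL array for 17, CBDL_164 for 11 and CBDL_170 for 1. The median distance of these 29 members from the sham mean was -1.41 on CBDL_164, -1.45 on CBDL_165 and -0.96 on CBDL_170.

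**Figure D1:**
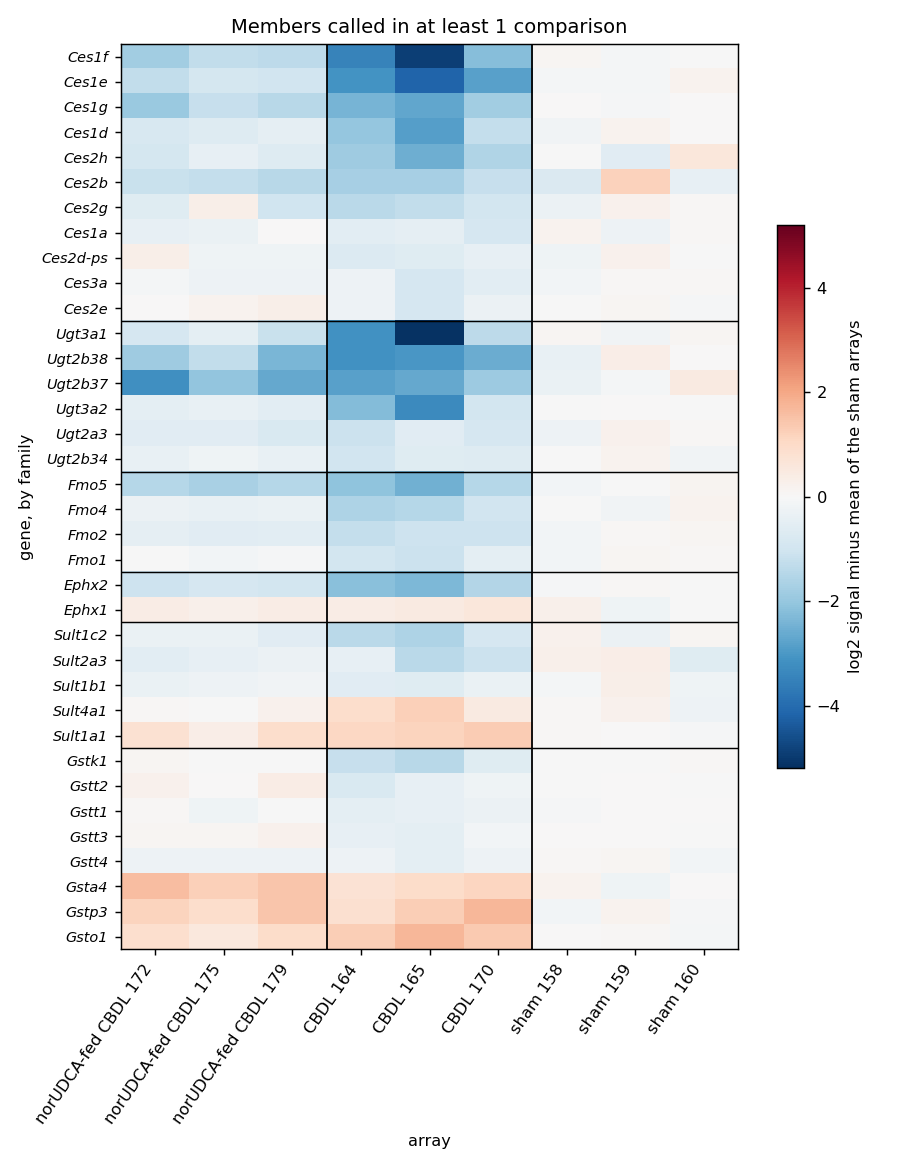
Log2 signal of each member called in at least 1 comparison minus its sham mean (colour, blue lower and red higher), with members in rows grouped by family and the 9 arrays in columns, norUDCA-fed CBDL first, then CBDL and sham. Most Ces, Ugt and Fmo rows are bluest on CBDL_164 and CBDL_165 and paler on CBDL_170, and Gsta4, Gstp3, Gsto1 and Sult1a1 are red on all ligated arrays.

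In norUDCA-fed CBDL against CBDL, which asks whether feeding changed the ligated kidney, 14 members rose, 2 fell and 62 did not pass. Those that rose were Ces1d, Ces1e, Ces1f, Ces2e, Ces2h, Fmo1, Fmo2, Fmo4, Ephx2, Gstk1, Gstt2, Gstt3, Sult1c2 and Ugt2b38, and those that fell were Gsto1 and Sult4a1. Over all genes 6.80% were called, 3.61% higher and 3.20% lower, against 20.5% of the members, and the members' median difference was 0.15 against 0.00 over all genes. The arrays did not overlap for 31 members, while 24.2% of all genes showed no overlap, and an unadjusted p under 0.05 was reached by 33 members and 19.3% of all genes. Only Ces1e, Fmo4 and Gstk1 kept their call when each of the 6 arrays was left out in turn (highest adjusted p of the other 13 members 0.159). The members that rose then numbered 3 without CBDL_164 or norUDCA_CBDL_175, 4 without norUDCA_CBDL_172, 5 without CBDL_165 or norUDCA_CBDL_179 and 19 without CBDL_170. The members that fell numbered 0 without CBDL_164, CBDL_165 or any 1 norUDCA-fed array, and 2 without CBDL_170.

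In norUDCA-fed CBDL against sham, 4 members were higher (Gsta4, Gstp3, Gsto1 and Sult1a1), 6 were lower (Ugt2b37, Ugt2b38, Fmo5, Ces1g, Ephx2 and Fmo2) and 68 did not pass. Over all genes 3.18% were called, 1.82% higher and 1.37% lower, against 12.8% of the members. The members' median difference was -0.11, against -0.05 over all genes, and the arrays of 29 members did not overlap, while 22.5% of all genes showed no overlap. An unadjusted p under 0.05 was reached by 21 members and 16.3% of all genes. Fmo5, Gsta4, Ugt2b37 and Ugt2b38 kept their call without any 1 of the 6 arrays. The higher members numbered 1 without sham_158, sham_160, norUDCA_CBDL_172 or norUDCA_CBDL_179 and 2 without sham_159, and the lower members numbered 3 without norUDCA_CBDL_179. The 3 comparisons share arrays, so their calls are not independent, and values of all 3 are given side by side below.

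**Figure D2:**
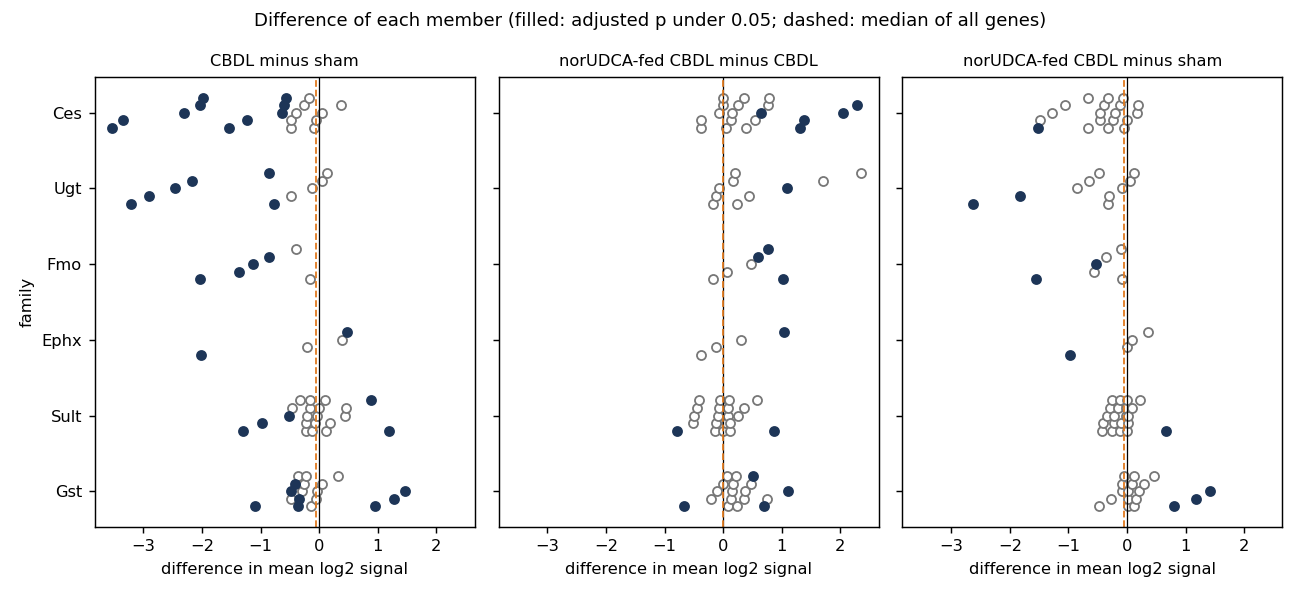
Difference in mean log2 signal (x axis) of each member (1 circle), by family (rows) and comparison (panels), with circles filled where limma's adjusted p was under 0.05, a solid line at no difference and a dashed line at the median of all genes. The filled Ces, Ugt and Fmo circles lie left of the line in CBDL minus sham (10, 6 and 4 members) and right of it in norUDCA-fed CBDL minus CBDL (5, 1 and 3 members), while Gst circles are filled on both sides in both panels.

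Among the glucuronosyltransferases, Ugt2b37 and Ugt2b38, members of the Ugt2b cluster on mouse chromosome 5, whose enzymes glucuronidate steroids and bile acids, fell after ligation and were also lower in norUDCA-fed CBDL than in sham. Ugt2b38 signals were 7.98, 8.55 and 7.46 in norUDCA-fed CBDL, 6.68, 6.81 and 7.25 in CBDL and 9.45, 10.16 and 9.84 in sham. No 2 of the 3 groups overlapped. Ugt2b38 changed by -2.91 in CBDL against sham (SE 0.28, adjusted p = 0.000102), by 1.08 in norUDCA-fed CBDL against CBDL (SE 0.28, adjusted p = 0.0468) and by -1.82 in norUDCA-fed CBDL against sham (SE 0.28, adjusted p = 0.00945). Without norUDCA_CBDL_172, the array with the lower Y-linked signals, the last of these kept its call (adjusted p = 0.048). Ugt2b37 signals were 7.15, 8.28 and 7.66 in norUDCA-fed CBDL, 7.51, 7.67 and 8.43 in CBDL and 9.98, 10.22 and 10.81 in sham. The norUDCA-fed CBDL and CBDL arrays overlapped, and both groups lay below every sham array. Ugt2b37 changed by -2.46 in CBDL against sham (SE 0.33, adjusted p = 0.000595), differed by -0.17 in norUDCA-fed CBDL against CBDL (SE 0.33, adjusted p = 0.86) and changed by -2.64 in norUDCA-fed CBDL against sham (SE 0.33, adjusted p = 0.00429). Whether the 2 genes differ in their response to feeding was not tested. The Ugt2b38 difference between norUDCA-fed CBDL and CBDL lost its call without CBDL_164, CBDL_165, norUDCA_CBDL_172 or norUDCA_CBDL_175 (highest adjusted p 0.159).

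Because these 2 rows moved together after ligation, the windows of 300 bases at their starts are shown, read from RefSeq on GRCm38.p6, both on the minus strand, at chr5:87254739-87255038 for Ugt2b37 and chr5:87424154-87424453 for Ugt2b38. Each window holds the promoter and the first bases of the transcript. Capitals mark the bases that differ between the windows when they are aligned.
Ugt2b37: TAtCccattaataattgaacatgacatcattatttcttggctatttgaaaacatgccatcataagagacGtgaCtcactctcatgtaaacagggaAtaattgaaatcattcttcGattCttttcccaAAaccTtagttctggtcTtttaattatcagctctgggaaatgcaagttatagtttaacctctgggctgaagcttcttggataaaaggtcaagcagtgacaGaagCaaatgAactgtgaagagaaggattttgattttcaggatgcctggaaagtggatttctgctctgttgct
Ugt2b38: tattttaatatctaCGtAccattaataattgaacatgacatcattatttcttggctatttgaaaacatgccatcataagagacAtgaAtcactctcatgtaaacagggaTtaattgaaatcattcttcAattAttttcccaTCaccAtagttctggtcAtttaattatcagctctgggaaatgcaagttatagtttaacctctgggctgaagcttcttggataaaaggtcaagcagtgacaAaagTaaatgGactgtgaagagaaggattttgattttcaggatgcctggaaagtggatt
Of 286 aligned bases 271 were identical and 15 differed (94.8% identity, no gap), and 14 bases at the ends were unaligned. Whether the 2 rows read each other's transcripts was not tested.

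Ugt3a1 and Ugt3a2 both fell after ligation. In humans UGT3A1 uses UDP-N-acetylglucosamine in place of UDP-glucuronate, with ursodeoxycholic acid among its substrates, and UGT3A2 uses UDP-glucose and UDP-xylose. Ugt3a1 signals were 8.78, 9.12 and 8.47 in norUDCA-fed CBDL, 6.51, 4.50 and 8.29 in CBDL and 9.75, 9.46 and 9.73 in sham. CBDL_165 was far below the other 2 CBDL arrays, and the CBDL arrays lay below every other array. Ugt3a1 changed by -3.21 in CBDL against sham (SE 0.72, adjusted p = 0.00982), by -2.25 without CBDL_165 and by -4.14 without CBDL_170. The difference of 2.36 between norUDCA-fed CBDL and CBDL (SE 0.72, adjusted p = 0.088) and that of -0.86 between norUDCA-fed CBDL and sham (adjusted p = 0.6) did not pass. Ugt3a2 signals were 11.23, 11.38 and 11.22 in norUDCA-fed CBDL, 9.50, 8.44 and 10.80 in CBDL and 11.74, 11.80 and 11.74 in sham. The groups did not overlap, and the order of the CBDL arrays was that of Ugt3a1. Ugt3a2 changed by -2.18 in CBDL against sham (SE 0.44, adjusted p = 0.00621, and -2.79 without CBDL_170), while the difference of 1.70 between norUDCA-fed CBDL and CBDL missed the threshold (SE 0.44, adjusted p = 0.051).

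Ugt2a3 (-0.86, adjusted p = 0.00439, dim) and Ugt2b34 (-0.77, adjusted p = 0.00263) also fell in CBDL against sham. The other 4 Ugt genes passed in no comparison, with differences between -0.48 and 0.23. Of these Ugt2b1 averaged 3.58 ± 0.07 in norUDCA-fed CBDL, 3.71 ± 0.60 in CBDL and 3.66 ± 0.10 in sham, and Ugt2b5 averaged 3.57 ± 0.12 in norUDCA-fed CBDL, 3.40 ± 0.26 in CBDL and 3.88 ± 0.36 in sham (SD, n = 3 each). Both are dim.

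Carboxylesterases included the 2 deepest falls of the 78 members, those of Ces1f and Ces1e. Of 8 Ces1 genes 5 fell in CBDL against sham (median -1.34 over the 8), and of 7 Ces2 genes 4 fell (median -0.59 over the 7). Enzymes of both groups cleave drug esters and acylglycerols. Ces1f, a triacylglycerol hydrolase of the endoplasmic reticulum, had signals of 9.84, 10.37 and 10.28 in norUDCA-fed CBDL, 8.16, 6.76 and 9.42 in CBDL and 11.77, 11.56 and 11.63 in sham. The 3 groups did not overlap, and CBDL_165 was again the lowest array. Ces1f changed by -3.54 in CBDL against sham (SE 0.51, adjusted p = 0.00091), which is 11.6-fold lower, by -2.86 without CBDL_165 and by -4.19 without CBDL_170. It changed by 2.05 in norUDCA-fed CBDL against CBDL (SE 0.51, adjusted p = 0.0426), by 1.37 without CBDL_165 and by 2.71 without CBDL_170, and differed by -1.49 in norUDCA-fed CBDL against sham (adjusted p = 0.179).

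Ces1e, also known as egasyn, which holds beta-glucuronidase in the endoplasmic reticulum, had signals of 8.47, 8.84 and 8.76 in norUDCA-fed CBDL, 6.65, 5.61 and 6.93 in CBDL and 9.67, 9.65 and 9.94 in sham. Every norUDCA-fed array lay above every CBDL array and below every sham array. Ces1e changed by -3.36 in CBDL against sham (SE 0.29, adjusted p = 6.12e-05) and by 2.29 in norUDCA-fed CBDL against CBDL (SE 0.29, adjusted p = 0.00658), while the difference of -1.06 between norUDCA-fed CBDL and sham did not pass (adjusted p = 0.0848). Both of its calls held without any 1 array. Ces1d, another triacylglycerol hydrolase, had signals of 8.41, 8.57 and 8.77 in norUDCA-fed CBDL, 7.24, 6.40 and 8.01 in CBDL and 9.07, 9.44 and 9.26 in sham. The groups were in the same order and did not overlap. Ces1d changed by -2.04 in CBDL against sham (SE 0.32, adjusted p = 0.00144) and by 1.37 in norUDCA-fed CBDL against CBDL (SE 0.32, adjusted p = 0.0343).

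Ces1g, a lipid-metabolising esterase of the same cluster, had signals of 5.17, 5.92 and 5.68 in norUDCA-fed CBDL, 4.71, 4.41 and 5.32 in CBDL and 7.14, 7.06 and 7.16 in sham. The norUDCA-fed and CBDL arrays overlapped, and both lay more than 1 log2 unit below sham. Ces1g changed by -2.30 in CBDL against sham (SE 0.24, adjusted p = 0.000145) and by -1.53 in norUDCA-fed CBDL against sham (SE 0.24, adjusted p = 0.0103, and 0.0509 without norUDCA_CBDL_179), and its difference of 0.78 between norUDCA-fed CBDL and CBDL did not pass (adjusted p = 0.0885). Ces2h signals were 6.02, 6.50 and 6.24 in norUDCA-fed CBDL, 5.07, 4.39 and 5.35 in CBDL and 6.91, 6.34 and 7.49 in sham. The CBDL arrays lay below all others, and the norUDCA-fed and sham arrays overlapped. Ces2h changed by -1.98 in CBDL against sham (SE 0.30, adjusted p = 0.00125) and by 1.32 in norUDCA-fed CBDL against CBDL (SE 0.30, adjusted p = 0.0323).

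Ces2e signals were 7.26, 7.40 and 7.52 in norUDCA-fed CBDL, 6.97, 6.36 and 6.90 in CBDL and 7.20, 7.32 and 7.16 in sham. All CBDL arrays lay below the other 6. Ces2e rose by 0.65 in norUDCA-fed CBDL against CBDL (SE 0.16, adjusted p = 0.0379), and its difference of -0.48 in CBDL against sham did not pass (adjusted p = 0.055). The other Ces genes that fell in CBDL against sham were Ces2b (-1.54), Ces2g (-1.22), Ces1a (-0.64), the pseudogene Ces2d-ps (-0.59) and Ces3a (-0.56), with adjusted p between 0.0145 and 0.0301. Each of these 5 lost its call without at least 1 array. For Ces2b the arrays concerned were CBDL_164 (adjusted p = 0.0766) and CBDL_165, and its change was -0.95 without sham_159, where it stood at 7.65 against 5.73 and 6.02 on the other sham arrays. Ces2g lost its call without CBDL_164 (adjusted p = 0.0571) or sham_159, Ces1a without CBDL_170, sham_158 (adjusted p = 0.0791) or sham_160, and Ces2d-ps without CBDL_164, CBDL_165, sham_159 (adjusted p = 0.0981) or sham_160. Ces3a, a dim row, lost it without CBDL_165, CBDL_170, sham_159 or sham_160 (adjusted p = 0.0736). Ces1d, Ces1f, Ces2e and Ces2h each lost their call of norUDCA-fed CBDL against CBDL without CBDL_164, CBDL_165 or any 1 norUDCA-fed array, with a highest adjusted p of 0.151.

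The 8 carboxylesterases that passed in no comparison differed between groups by -0.48 to 0.38. Ces1b averaged 5.39 ± 0.16 in norUDCA-fed CBDL, 5.77 ± 0.54 in CBDL and 5.39 ± 0.17 in sham. Ces2f averaged 5.09 ± 0.32 in norUDCA-fed CBDL, 4.94 ± 0.24 in CBDL and 5.42 ± 0.41 in sham (SD, n = 3 each).

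**Figure D3:**
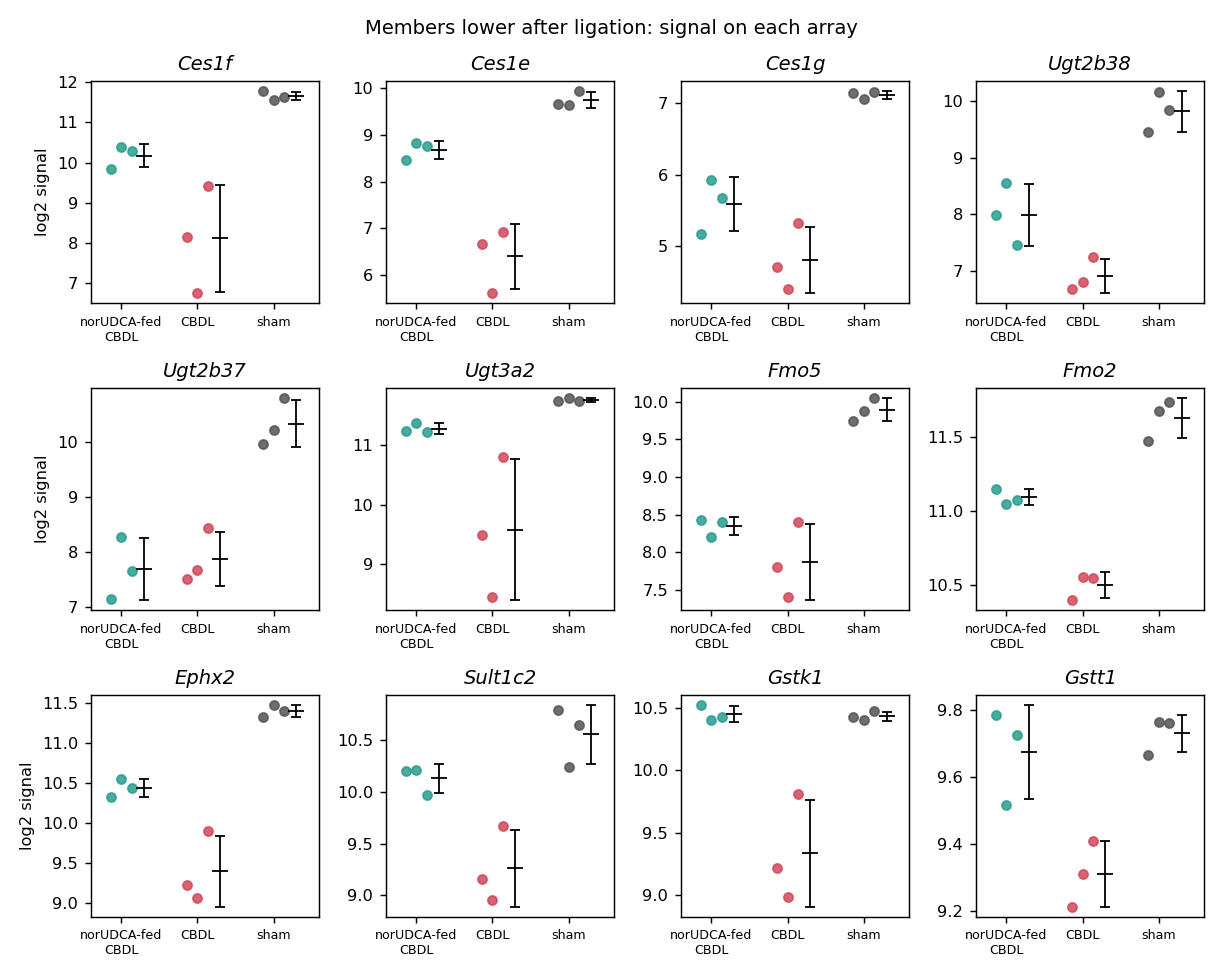
Log2 signal on each array (points), with the group mean and SD (bars, n = 3), of 12 members that fell after ligation, in norUDCA-fed CBDL, CBDL and sham from left to right, each panel with its own axis that does not start at 0. The norUDCA-fed points lie between CBDL and sham for Ces1f, Ces1e, Fmo2 and Ephx2, beside CBDL for Ugt2b37 and beside sham for Gstk1.

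Of the flavin-containing monooxygenases, Fmo1, Fmo2, Fmo4 and Fmo5 fell in CBDL against sham and Fmo1, Fmo2 and Fmo4 rose in norUDCA-fed CBDL against CBDL. Fmo5, which inserts oxygen beside carbonyl groups, had signals of 8.42, 8.21 and 8.40 in norUDCA-fed CBDL, 7.80, 7.40 and 8.40 in CBDL and 9.75, 9.88 and 10.05 in sham. CBDL_170 reached the norUDCA-fed arrays, and all 6 ligated kidneys lay below sham. Fmo5 changed by -2.03 in CBDL against sham (SE 0.21, adjusted p = 0.00017) and by -1.55 in norUDCA-fed CBDL against sham (SE 0.21, adjusted p = 0.00647), and differed by 0.48 in norUDCA-fed CBDL against CBDL (adjusted p = 0.266).

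Fmo4 signals were 8.88, 8.82 and 8.84 in norUDCA-fed CBDL, 7.60, 7.71 and 8.19 in CBDL and 9.17, 9.03 and 9.40 in sham. The norUDCA-fed arrays were within 0.1 of each other and lay between the other groups without overlap. Fmo4 changed by -1.37 in CBDL against sham (SE 0.16, adjusted p = 0.000284) and by 1.01 in norUDCA-fed CBDL against CBDL (SE 0.16, adjusted p = 0.00978). Fmo2, best known from lung, had signals of 11.15, 11.05 and 11.08 in norUDCA-fed CBDL, 10.40, 10.55 and 10.55 in CBDL and 11.47, 11.67 and 11.74 in sham. The groups did not overlap, and here the 3 CBDL arrays were nearly equal. Fmo2 changed by -1.13 in CBDL against sham (SE 0.10, adjusted p = 8.24e-05), by 0.59 in norUDCA-fed CBDL against CBDL (SE 0.10, adjusted p = 0.0125) and by -0.54 in norUDCA-fed CBDL against sham (SE 0.10, adjusted p = 0.0243).

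Fmo1, which oxygenates trimethylamine and many drugs and is expressed in mouse kidney, had signals of 11.55, 11.44 and 11.51 in norUDCA-fed CBDL, 10.64, 10.47 and 11.07 in CBDL and 11.43, 11.66 and 11.65 in sham. The norUDCA-fed and sham arrays overlapped and lay above all CBDL arrays. Fmo1 changed by -0.85 in CBDL against sham (SE 0.15, adjusted p = 0.00262) and by 0.77 in norUDCA-fed CBDL against CBDL (SE 0.15, adjusted p = 0.0169), and differed by -0.08 in norUDCA-fed CBDL against sham (adjusted p = 0.835). The Fmo1 call of norUDCA-fed CBDL against CBDL ended without CBDL_164 (adjusted p = 0.0694), CBDL_165 or any 1 norUDCA-fed array, and that of Fmo2 without CBDL_164, norUDCA_CBDL_172 (adjusted p = 0.053) or norUDCA_CBDL_175. The Fmo2 call of norUDCA-fed CBDL against sham ended without any 1 of the 6 arrays other than sham_158 (highest adjusted p 0.108). Fmo6 and Fmo9, both dim, passed in no comparison. Fmo6 averaged 4.24 ± 0.05 in norUDCA-fed CBDL, 4.41 ± 0.09 in CBDL and 4.80 ± 0.41 in sham, and Fmo9 averaged 4.18 ± 0.07 in norUDCA-fed CBDL, 4.12 ± 0.03 in CBDL and 4.29 ± 0.18 in sham (SD, n = 3 each).

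The 2 main epoxide hydrolases moved in opposite directions after ligation. Ephx2, the soluble enzyme that turns epoxyeicosatrienoic acids into diols, had signals of 10.33, 10.55 and 10.44 in norUDCA-fed CBDL, 9.22, 9.06 and 9.90 in CBDL and 11.33, 11.48 and 11.40 in sham. The 3 groups were apart, with norUDCA-fed CBDL in the middle. Ephx2 changed by -2.01 in CBDL against sham (SE 0.19, adjusted p = 9.62e-05), by 1.04 in norUDCA-fed CBDL against CBDL (SE 0.19, adjusted p = 0.0142) and by -0.96 in norUDCA-fed CBDL against sham (SE 0.19, adjusted p = 0.0258). The second of these calls ended without CBDL_164, norUDCA_CBDL_175 (adjusted p = 0.0648) or norUDCA_CBDL_179, and the third without any 1 of its 6 arrays (highest adjusted p 0.113). Ephx1, the microsomal enzyme for xenobiotic epoxides, had signals of 9.51, 9.36 and 9.51 in norUDCA-fed CBDL, 9.48, 9.59 and 9.70 in CBDL and 9.36, 8.90 and 9.07 in sham. CBDL lay above sham without overlap, and norUDCA-fed CBDL overlapped CBDL. Ephx1 changed by 0.48 in CBDL against sham (SE 0.13, adjusted p = 0.0244), and the call was lost without CBDL_165, CBDL_170 (adjusted p = 0.0751), sham_159 or sham_160. Ephx3 and Ephx4 passed in no comparison. Ephx3 averaged 6.20 ± 0.20 in norUDCA-fed CBDL, 5.90 ± 0.23 in CBDL and 6.10 ± 0.08 in sham, and Ephx4, a dim row, averaged 3.20 ± 0.25 in norUDCA-fed CBDL, 3.58 ± 0.51 in CBDL and 3.19 ± 0.12 in sham (SD, n = 3 each).

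Of 21 sulfotransferases 3 were lower and 2 higher in CBDL against sham, a share of 23.8% beside the 21.8% of all genes, and 16 of the 21 are dim. Sult1a1, the phenol sulfotransferase, had signals of 8.33, 7.89 and 8.44 in norUDCA-fed CBDL, 8.64, 8.70 and 8.87 in CBDL and 7.60, 7.56 and 7.48 in sham. The groups did not overlap, with norUDCA-fed CBDL in the middle. Sult1a1 changed by 1.19 in CBDL against sham (SE 0.14, adjusted p = 0.000356) and by 0.67 in norUDCA-fed CBDL against sham (SE 0.14, adjusted p = 0.0378), and differed by -0.51 in norUDCA-fed CBDL against CBDL (adjusted p = 0.0652). The call against sham in norUDCA-fed CBDL ended without any 1 array other than norUDCA_CBDL_175 (highest adjusted p 0.158). Sult1c2 had signals of 10.21, 10.21 and 9.97 in norUDCA-fed CBDL, 9.15, 8.95 and 9.67 in CBDL and 10.79, 10.24 and 10.65 in sham. CBDL lay below both other groups, and norUDCA-fed CBDL just below sham. Sult1c2 changed by -1.30 in CBDL against sham (SE 0.20, adjusted p = 0.00119) and by 0.87 in norUDCA-fed CBDL against CBDL (SE 0.20, adjusted p = 0.0302), and differed by -0.43 in norUDCA-fed CBDL against sham (adjusted p = 0.32).

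Sult4a1, an orphan sulfotransferase best known from brain, had signals of 4.64, 4.57 and 4.81 in norUDCA-fed CBDL, 5.52, 5.82 and 5.06 in CBDL and 4.63, 4.80 and 4.33 in sham. Its CBDL arrays were the highest, at a level near or within the dim range. Sult4a1 changed by 0.88 in CBDL against sham (SE 0.19, adjusted p = 0.00844) and by -0.79 in norUDCA-fed CBDL against CBDL (SE 0.19, adjusted p = 0.0381). The calls of norUDCA-fed CBDL against CBDL of Sult1c2 and Sult4a1 ended without CBDL_164, CBDL_165 or any 1 norUDCA-fed array (highest adjusted p 0.138).

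Sult2a3, of the hydroxysteroid and bile acid sulfotransferases, had signals of 3.85, 3.96 and 4.09 in norUDCA-fed CBDL, 3.96, 2.96 and 3.26 in CBDL and 4.66, 4.71 and 3.76 in sham. Sham_160 lay below CBDL_164, so the CBDL and sham groups overlapped. Sult2a3 changed by -0.98 in CBDL against sham (SE 0.29, adjusted p = 0.0355), and the call ended without CBDL_165 (adjusted p = 0.124), CBDL_170, sham_158 or sham_159. Sult1b1, which sulfates thyroid hormones, had signals of 4.40, 4.47 and 4.56 in norUDCA-fed CBDL, 4.14, 4.10 and 4.40 in CBDL and 4.64, 5.05 and 4.50 in sham. CBDL_170, the highest CBDL array, lay just below sham_160, the lowest sham array. Sult1b1 changed by -0.52 in CBDL against sham (SE 0.15, adjusted p = 0.0326), and the call ended without CBDL_164, CBDL_165 (adjusted p = 0.101), sham_158 or sham_159. The 16 sulfotransferases that passed in no comparison, 8 of the 9 Sult2 genes among them, differed by -0.49 to 0.46. Sult1d1, which sulfates catecholamines in mice, averaged 11.87 ± 0.14 in norUDCA-fed CBDL, 11.53 ± 0.15 in CBDL and 11.66 ± 0.05 in sham, and Sult5a1 averaged 5.98 ± 0.21 in norUDCA-fed CBDL, 6.47 ± 0.22 in CBDL and 6.01 ± 0.25 in sham (SD, n = 3 each).

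Among the glutathione S-transferases, Gsto1, Gstp3 and Gsta4 rose in CBDL against sham (1 of 2 omega, 1 of 3 pi and 1 of 2 alpha genes), Gstk1 and all 4 theta genes fell, and none of the 6 mu genes (Gstm) passed in any comparison by limma (1, 1 and 0 of the 6 had an unadjusted p under 0.05 in CBDL against sham, norUDCA-fed CBDL against CBDL and norUDCA-fed CBDL against sham). Gsto1, the omega enzyme with thioltransferase and dehydroascorbate reductase activity, had signals of 8.33, 7.98 and 8.40 in norUDCA-fed CBDL, 8.72, 9.18 and 8.80 in CBDL and 7.48, 7.49 and 7.34 in sham. The groups were apart, with norUDCA-fed CBDL in the middle. Gsto1 changed by 1.46 in CBDL against sham (SE 0.15, adjusted p = 0.000143), by -0.66 in norUDCA-fed CBDL against CBDL (SE 0.15, adjusted p = 0.0297) and by 0.80 in norUDCA-fed CBDL against sham (SE 0.15, adjusted p = 0.0228). The second of these calls held only without CBDL_170 and the third only without norUDCA_CBDL_175, with a highest adjusted p of 0.111 otherwise.

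Gstp3, of the pi class, had signals of 7.29, 7.01 and 7.55 in norUDCA-fed CBDL, 6.95, 7.38 and 7.84 in CBDL and 5.98, 6.30 and 6.05 in sham. The 2 ligated groups overlapped above sham. Gstp3 changed by 1.28 in CBDL against sham (SE 0.22, adjusted p = 0.00221) and by 1.17 in norUDCA-fed CBDL against sham (SE 0.22, adjusted p = 0.0212), and this last call was lost without sham_158, sham_160, norUDCA_CBDL_172 or norUDCA_CBDL_179 (highest adjusted p 0.104). Gsta4, the alpha enzyme for the lipid peroxidation product hydroxynonenal, had signals of 10.46, 10.06 and 10.27 in norUDCA-fed CBDL, 9.61, 9.79 and 9.97 in CBDL and 9.02, 8.63 and 8.87 in sham. Here the norUDCA-fed arrays were the highest, and no groups overlapped. Gsta4 changed by 0.95 in CBDL against sham (SE 0.15, adjusted p = 0.00127) and by 1.42 in norUDCA-fed CBDL against sham (SE 0.15, adjusted p = 0.00152), and both calls held without any 1 array. Its difference of 0.47 between norUDCA-fed CBDL and CBDL did not pass (SE 0.15, adjusted p = 0.094).

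**Figure D4:**
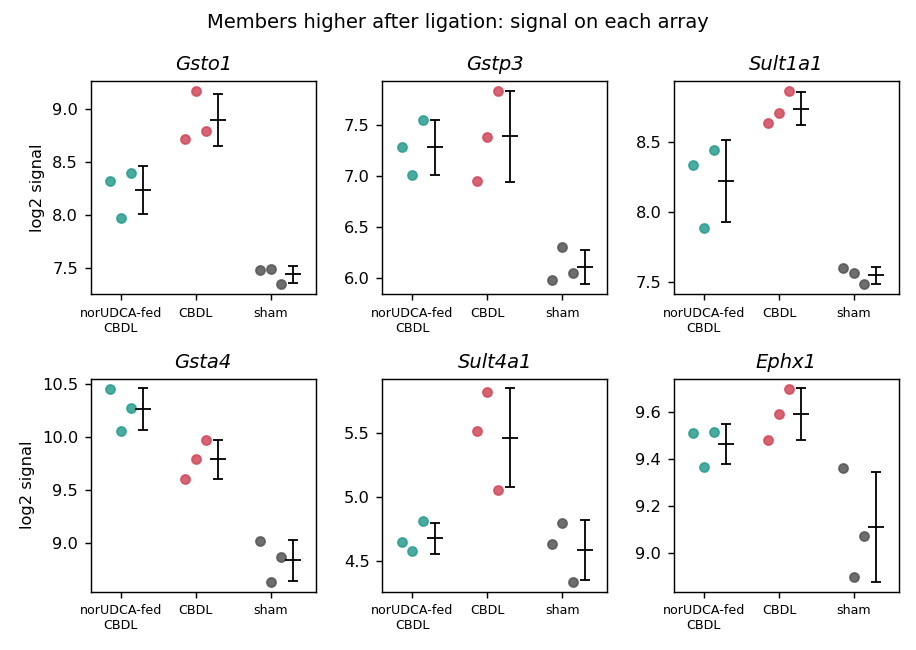
Log2 signal on each array (points), with the group mean and SD (bars, n = 3), of the 6 members that rose after ligation, in norUDCA-fed CBDL, CBDL and sham from left to right, each panel with its own axis that does not start at 0. Gsto1, Sult1a1 and Sult4a1 are highest in CBDL, while Gsta4 is highest in norUDCA-fed CBDL.

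Gstk1, the kappa enzyme of mitochondria and peroxisomes, had signals of 10.52, 10.40 and 10.43 in norUDCA-fed CBDL, 9.22, 8.98 and 9.81 in CBDL and 10.42, 10.40 and 10.47 in sham. The norUDCA-fed and sham arrays overlapped within a narrow range, and the CBDL arrays lay below both. Gstk1 was 2.14-fold lower in CBDL than in sham (SE 0.18 on the log2 scale, adjusted p = 0.0018) and changed by 1.11 in norUDCA-fed CBDL against CBDL (SE 0.18, adjusted p = 0.0104), and it differed by 0.02 in norUDCA-fed CBDL against sham (adjusted p = 0.971).

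The theta class fell by less. Gstt2 had signals of 10.17, 9.98 and 10.32 in norUDCA-fed CBDL, 9.15, 9.51 and 9.72 in CBDL and 9.92, 9.98 and 9.93 in sham. The CBDL arrays were the lowest. Gstt2 changed by -0.48 in CBDL against sham (SE 0.15, adjusted p = 0.0431) and by 0.69 in norUDCA-fed CBDL against CBDL (SE 0.15, adjusted p = 0.0243). Gstt3 had signals of 8.71, 8.70 and 8.83 in norUDCA-fed CBDL, 8.19, 8.10 and 8.44 in CBDL and 8.61, 8.60 and 8.58 in sham. Its norUDCA-fed arrays lay above sham by less than the test could separate. Gstt3 changed by -0.35 in CBDL against sham (SE 0.11, adjusted p = 0.0392) and by 0.50 in norUDCA-fed CBDL against CBDL (SE 0.11, adjusted p = 0.0235).

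Gstt1, which acts on halogenated methanes, had signals of 9.78, 9.52 and 9.72 in norUDCA-fed CBDL, 9.21, 9.31 and 9.41 in CBDL and 9.67, 9.76 and 9.76 in sham. The CBDL arrays lay below the other 6. Gstt1 changed by -0.42 in CBDL against sham (SE 0.10, adjusted p = 0.0171). Gstt4 had signals of 4.35, 4.35 and 4.35 in norUDCA-fed CBDL, 4.35, 4.09 and 4.35 in CBDL and 4.66, 4.73 and 4.46 in sham. The value table holds 1 identical number for this dim row on 5 arrays, as it does on at least 5 arrays for 3.23% of all rows. Gstt4 changed by -0.35 in CBDL against sham (SE 0.11, adjusted p = 0.047). In CBDL against sham the Gstt1 call ended without CBDL_164 (adjusted p = 0.0636) or sham_160, and those of Gstt2, Gstt3 and Gstt4 each ended without 5 of the 6 arrays (highest adjusted p 0.14), the exceptions being CBDL_170 for Gstt2 and Gstt3 and sham_160 for Gstt4. The Gstt2 and Gstt3 calls of norUDCA-fed CBDL against CBDL ended without any 1 array other than CBDL_170 (highest adjusted p 0.0916).

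The 10 Gst genes that passed in no comparison differed by -0.48 to 0.75, the upper end being Gsta3 in norUDCA-fed CBDL against CBDL (adjusted p = 0.0598). Gstp1 averaged 10.64 ± 0.48 in norUDCA-fed CBDL, 10.64 ± 0.05 in CBDL and 11.12 ± 0.31 in sham. Gstp2 averaged 9.43 ± 0.04 in norUDCA-fed CBDL, 9.28 ± 0.13 in CBDL and 9.32 ± 0.38 in sham (SD, n = 3 each).

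Cell markers moved with these changes. In whole kidney RNA, fewer cells of a type and less RNA per cell cannot be told apart. All 21 proximal tubule markers measured fell in CBDL against sham (changes between -4.40 and -0.53, median -1.74), 16 rose in norUDCA-fed CBDL against CBDL (median 1.09) and 3 were lower in norUDCA-fed CBDL against sham. Their summed signal lay between 16.03 and 16.15 in norUDCA-fed CBDL, between 14.56 and 15.53 in CBDL and between 16.40 and 16.49 in sham (log2), with CBDL_165 the lowest and CBDL_170 the highest of the CBDL arrays. All 11 macrophage markers measured rose in CBDL against sham, 10 fell in norUDCA-fed CBDL against CBDL and 9 were higher in norUDCA-fed CBDL against sham. Their summed signal lay between 11.86 and 11.98 in norUDCA-fed CBDL, between 12.61 and 13.57 in CBDL and between 10.81 and 11.27 in sham. All 8 tubular injury markers rose in CBDL against sham (median 2.94), 7 fell in norUDCA-fed CBDL against CBDL and 7 were higher in norUDCA-fed CBDL against sham. Their summed signal lay between 12.43 and 12.59 in norUDCA-fed CBDL, between 13.18 and 13.52 in CBDL and between 10.52 and 10.64 in sham. Of 8 genes more abundant in male than female mouse kidney, 7 fell in CBDL against sham and 5 were lower in norUDCA-fed CBDL against sham, while 1 rose in norUDCA-fed CBDL against CBDL. Slc7a13 and Slc22a7 of this list are also proximal tubule markers. The summed signal of all 8 genes lay between 12.56 and 13.06 in norUDCA-fed CBDL, between 11.12 and 12.69 in CBDL and between 14.10 and 14.39 in sham. The part of these shifts in the members' changes was not tested.

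Hepatocytes and adipocytes also express carboxylesterases. Of 9 hepatocyte markers 3 fell and 0 rose in CBDL against sham, and their summed signal lay between 12.89 and 12.93 in norUDCA-fed CBDL, between 11.56 and 12.71 in CBDL and between 13.24 and 13.39 in sham. The 3 that fell were Alb, Ttr and Cyp2e1, of which Ttr and Cyp2e1 carry most of the sum, and the Cyp2e1 call ended without sham_160 (adjusted p = 0.0563). Fga differed by 1.25 the other way (adjusted p = 0.0634). Apoa1, Apoa2, Serpina1a, Tat and Cps1 did not pass in CBDL against sham and lay between 4.41 and 6.44 on the 9 arrays. Whether the Ttr and Cyp2e1 signals came from hepatocytes or from kidney cells was not tested. Alb, the albumin gene, lay between 5.92 and 6.33 in norUDCA-fed CBDL, between 5.28 and 5.66 in CBDL and between 6.82 and 7.18 in sham. Of 8 adipose markers 4 rose and 1 fell in CBDL against sham, and their summed signal lay between 11.19 and 12.07 in norUDCA-fed CBDL, between 11.27 and 12.63 in CBDL and between 11.73 and 12.05 in sham. The adipose sums of the 3 groups overlapped, but Fabp4 and Cd36, the marker that fell, carry most of them. Those that rose were Adipoq, Plin4, Cidec and Retn, and the Retn call ended without sham_159, sham_160, CBDL_164 or CBDL_170. Adipoq lay between 5.55 and 6.53 in norUDCA-fed CBDL, between 7.52 and 7.69 in CBDL and between 4.97 and 5.82 in sham. Adipoq and Plin4 were the 2 that fell in norUDCA-fed CBDL against CBDL, and both calls ended without CBDL_164 or norUDCA_CBDL_175. The part of hepatocyte and adipose RNA in the Ces changes was not tested.

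The promoter windows were searched for 3 motifs on both strands, and 64 of the 78 members had a window of 300 bases in RefSeq (GRCm38.p6). GTTAAT, a half-site of the proximal tubule and liver factor HNF1, was in 13 of the 64 (20.3%) and in 7.20% of 27025 promoters. Of the 13, 3 fell (Sult2a3, Ugt2a3 and Ugt3a1), 1 rose (Sult1a1) and 9 did not pass in CBDL against sham. Beside this, 44.9% of the 78 members and 21.8% of all genes were called. The 13 include Sult2a3, Sult2a4, Sult2a5 and Sult2a6, related genes on chromosome 7 whose rows are dim. Whether the motif goes with the changes was not tested. The HNF4 site CAAAGTCCA was in none of the 64 and in 0.48% of all promoters, and TGACNNNGC, the core of the antioxidant response element, was in 1 (Gsta3, 1.6%) and in 12.47% of all. A match is a run of letters and not a shown binding site. Ugt3a1 (chr15:9279579-9279878, plus strand) and Sult1a1 (chr7:126676369-126676668, minus strand) are shown because both hold GTTAAT and changed in opposite directions, with the match in capitals (on the opposite strand in Ugt3a1).
Ugt3a1: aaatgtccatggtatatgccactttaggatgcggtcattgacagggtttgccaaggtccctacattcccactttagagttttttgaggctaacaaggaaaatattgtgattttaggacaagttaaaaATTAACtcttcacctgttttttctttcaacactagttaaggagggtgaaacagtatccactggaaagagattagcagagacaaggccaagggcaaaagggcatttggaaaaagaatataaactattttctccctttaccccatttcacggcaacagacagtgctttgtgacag
Sult1a1: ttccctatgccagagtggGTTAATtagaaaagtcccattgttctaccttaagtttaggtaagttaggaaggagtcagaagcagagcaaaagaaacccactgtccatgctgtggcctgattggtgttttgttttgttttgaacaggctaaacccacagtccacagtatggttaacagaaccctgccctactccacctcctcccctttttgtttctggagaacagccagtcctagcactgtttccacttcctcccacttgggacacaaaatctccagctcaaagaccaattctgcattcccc

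Genes that work with the members were counted from lists. Beside these counts and those of the markers above, 21.8% of all genes were called in CBDL against sham, 11.5% lower and 10.3% higher. The shares were 6.80% in norUDCA-fed CBDL against CBDL (3.61% higher and 3.20% lower) and 3.18% in norUDCA-fed CBDL against sham (1.82% higher and 1.37% lower). Of 15 measured genes that supply UDP-glucuronate, PAPS and glutathione, 9 fell and 0 rose in CBDL against sham. Gss, glutathione synthetase, changed by -1.25 (adjusted p = 0.00033), Bpnt1, which clears the by-product of sulfation, by -1.20 (adjusted p = 0.00041) and the sulfate transporter gene Slc26a1 by -2.14 (adjusted p = 0.000454). Of the same 15, 6 rose and 0 fell in norUDCA-fed CBDL against CBDL, among them Cth, which makes cysteine, at 1.12 (adjusted p = 0.011), Slc26a1 at 1.57 (adjusted p = 0.0126) and the PAPS synthase gene Papss2 at 1.16 (adjusted p = 0.0129). These 3 calls ended without norUDCA_CBDL_175 (adjusted p up to 0.0603) and without 1 further array each. Cth changed by -1.36 (adjusted p = 0.000615) and Papss2 by -1.225 (adjusted p = 0.00185) in CBDL against sham. Against sham, limma called 0 of the 15 in norUDCA-fed CBDL, and 3 had an unadjusted p under 0.05.

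Of 19 other conjugation enzymes, 3 rose and 8 fell in CBDL against sham, 6 rose and 2 fell in norUDCA-fed CBDL against CBDL, and 1 was higher and 3 lower in norUDCA-fed CBDL against sham. Mgst1, a microsomal glutathione transferase, changed by 1.59 in CBDL against sham (adjusted p = 2.36e-05), by -0.60 in norUDCA-fed CBDL against CBDL (adjusted p = 0.0109, and 0.0512 without norUDCA_CBDL_175) and by 0.99 in norUDCA-fed CBDL against sham (adjusted p = 0.00126). Inmt, an amine N-methyltransferase, changed by -4.23 in CBDL against sham (adjusted p = 0.000101) and by -2.42 in norUDCA-fed CBDL against sham (adjusted p = 0.0129, and 0.067 without norUDCA_CBDL_179). Acsm1, which activates acids for glycine conjugation, changed by -2.78 in CBDL against sham (adjusted p = 0.000145), by 1.40 in norUDCA-fed CBDL against CBDL (adjusted p = 0.0206, and up to 0.0828 without 1 array) and by -1.38 in norUDCA-fed CBDL against sham (adjusted p = 0.034, and up to 0.149 without 1 array). The methyltransferase gene Tpmt changed by -1.02 in CBDL against sham (adjusted p = 0.00163). It changed by 0.83 in norUDCA-fed CBDL against CBDL (adjusted p = 0.0181, and up to 0.0803 without 1 array).

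Of 15 other esterases, oxidases and deconjugating enzymes, 3 rose and 2 fell in CBDL against sham. The shares of all genes were 10.3% higher and 11.5% lower. Arsb, a lysosomal sulfatase, changed by -1.09 (adjusted p = 0.000373) and Aadac, arylacetamide deacetylase, by -1.83 (adjusted p = 0.000647). The aldehyde oxidase gene Aox1 changed by 0.99 (adjusted p = 0.0226, and up to 0.0743 without 1 array). Between norUDCA-fed CBDL and CBDL 2 rose and 1 fell, namely Aadac at 1.24 (adjusted p = 0.019), Arsb at 0.59 (adjusted p = 0.029) and the butyrylcholinesterase gene Bche at -0.58 (adjusted p = 0.04999), and each call ended without 5 of the 6 arrays (highest adjusted p 0.165). Against sham, limma called 0 of these 15 in norUDCA-fed CBDL, and 4 had an unadjusted p under 0.05.

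Of 11 sensors of xenobiotics and bile acids and tubule transcription factors, 2 rose and 3 fell in CBDL against sham. Ahr, the aryl hydrocarbon receptor, changed by 1.09 (adjusted p = 0.000482), Rxra, the common partner of nuclear receptors, by -0.64 (adjusted p = 0.00112) and Hnf4a by -0.68 (adjusted p = 0.00144). Ahr changed by -0.79 in norUDCA-fed CBDL against CBDL (adjusted p = 0.0134, and up to 0.0612 without 1 array) and Hnf4a by 0.54 (adjusted p = 0.0194, and up to 0.078 without 1 array). The list's single call in norUDCA-fed CBDL against sham was Nr1i2, the pregnane X receptor, at 0.78 (adjusted p = 0.0314, and up to 0.141 without 1 array).

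Of 12 transporters of organic anions and conjugates, 4 rose and 6 fell in CBDL against sham, 5 rose and 0 fell in norUDCA-fed CBDL against CBDL, and 3 were higher and 0 lower in norUDCA-fed CBDL against sham. Slc22a6 and Slc22a8 are also in the proximal tubule list. Slco4c1, a basolateral uptake transporter, changed by -2.10 in CBDL against sham (adjusted p = 9.36e-05) and by 1.28 in norUDCA-fed CBDL against CBDL (adjusted p = 0.0091). Abcc3, an exporter of glucuronides and bile acids, changed by 2.17 in CBDL against sham (adjusted p = 0.000209) and by 1.60 in norUDCA-fed CBDL against sham (adjusted p = 0.00901, and 0.0526 without norUDCA_CBDL_179). Abcc4, another conjugate exporter, changed by 0.92 in CBDL against sham (adjusted p = 0.00136) and by 0.71 in norUDCA-fed CBDL against sham (adjusted p = 0.0288, and up to 0.123 without 1 array). Abcb1b, a multidrug exporter, changed by 0.93 in CBDL against sham (adjusted p = 0.00216) and by 1.40 in norUDCA-fed CBDL against sham (adjusted p = 0.00245). Abcc2, the apical conjugate exporter, changed by 0.78 (adjusted p = 0.0164, and up to 0.0692 without 1 array) and Slc22a8, an organic anion uptake transporter, by 1.85 (adjusted p = 0.0375, and up to 0.125 without 1 array) in norUDCA-fed CBDL against CBDL. Both fell in CBDL against sham, with changes of -0.71 for Abcc2 (adjusted p = 0.0072) and -1.92 for Slc22a8 (adjusted p up to 0.0389 without 1 array).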

How the data were processed

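Kidney RNA of 9 samples in 3 groups of 3 was measured. Per the labels' protocols, the samples are total RNA from a TRIzol extraction, and labelling used the WT PLUS reagent kit of Affymetrix. The deposited values are log2 signals per row, which the authors normalized with RMA, a summary of probe signals across arrays. RMA and Partek 6.6 are named in the submitters' processing notes. No array model, genome build or batch correction is named in the sources used here. Array medians lay between 5.7 and 5.79 and maxima between 13.64 and 13.73, and the values were used without further scaling.

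Of 41345 rows, 23521 carry 1 gene symbol in the platform annotation, 1814 several and 16010 none. The row with the highest mean over the 9 arrays stood for each gene, which left 1341 rows unused and 22180 genes, with no filter on signal. All 78 members were found by their Entrez number in the RefSeq gene table.

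Group means over all 9 arrays were fitted with limma 3.58.1 (R 4.3.3) and compared with its moderated test (6 residual and 3.77 prior degrees of freedom). The script was tested on simulated data. Promoter windows were aligned with Biopython 1.88. The labels' numbers are not shared between groups, so no pairing was used.

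The members and gene lists were chosen with earlier results of these data known. The text gives array values, per family and comparison, for the 3 higher and 3 lower called members with the largest change and for all members of a count of 5 or fewer, the 2 uncalled members with the highest signal per family, and the 3 called genes of each other list with the lowest p. Other members are given by value or range. Members printed in a comparison that does not call them, members given in full beyond this rule, Gsta3 and the marker genes named were chosen after their values were seen. So were the values in CBDL against sham of Cth, Papss2, Tpmt, Abcb1b, Abcc2 and Slc22a8.

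Alternatives tried were a prior variance that follows intensity, array weights, a fit on only the 6 arrays compared, leaving out the 33.3% of genes with the lowest signal, the mean of a gene's rows, quantile normalization again and leaving out each array. Leaving out sham_159 and CBDL_165 together was added after the data were seen.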

Additional observations from a re-analysis of the deposited data

Results flagged for a closer look

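Rows that carry several gene symbols were not used for the comparisons. There are 9 such rows with a symbol of these families, and 1 of them passed the test as higher than sham. The row of Gm3776, Gm10639, Gsta1 and Gsta2, which holds the alpha-class glutathione S-transferases that detoxify electrophiles, had signals of 9.89, 10.09 and 9.88 in norUDCA-fed CBDL, 8.55, 9.10 and 9.21 in CBDL and 8.83, 8.72 and 8.82 in sham. The norUDCA-fed arrays lay above all others, and the CBDL and sham arrays overlapped. The difference was 1.16 in norUDCA-fed CBDL against sham (SE 0.17, limma adjusted p over all rows 0.028), 1.002 in norUDCA-fed CBDL against CBDL (adjusted p = 0.0415) and 0.16 in CBDL against sham (adjusted p = 0.618). The call against sham ended without any 1 of the 6 arrays (adjusted p between 0.079 and 0.138). The call against CBDL held only without CBDL_170 (adjusted p = 0.0191). Another row, of Gsta2, Gsta1 and Gm10639, had signals of 5.72, 6.26 and 5.18 in norUDCA-fed CBDL and 4.51, 4.50 and 4.65 in sham, without overlap, but the difference of 1.16 did not pass (SE 0.37, adjusted p = 0.26). The row of Gsta1, Gm3776 and Gsta2 differed by 0.41 between norUDCA-fed CBDL and sham, with overlap (adjusted p = 0.375). Which of the 4 genes these rows read cannot be told apart.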

How the results depend on the processing

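No paired analysis was possible because the groups share no replicate numbers. In CBDL against sham, the counts of 6 higher and 29 lower members stayed within 1.5 times under every alternative run, and leaving out 1 array gave 5 to 6 higher and 21 to 27 lower members. Leaving out both sham_159 and CBDL_165 ended the calls of Ces2d-ps, Ces2g, Ces3a, Ephx1, Gstt1, Gstt2, Gstt3, Gstt4, Sult1b1 and Sult2a3 in this comparison. In norUDCA-fed CBDL against CBDL, the 14 higher and 2 lower members became 7 and 0 with only the 6 arrays compared in the fit and 5 and 0 without sham_159 and CBDL_165 (chosen after seeing the data), and leaving out 1 array gave 3 to 19 higher and 0 to 2 lower. Against sham, the lower members of norUDCA-fed CBDL numbered 11 with array weights in place of 6, the higher members numbered 2 in place of 4 without sham_159 and CBDL_165, and leaving out 1 array gave 1 to 4 higher and 3 to 5 lower. The causes were not tested, though a fit with fewer arrays has fewer degrees of freedom. No called member changed direction in its comparison under any alternative, and members that were not called were not followed. Except for Sult2a3 in CBDL against sham, the arrays of every called member did not overlap in its comparison. Leaving out or weighting arrays cannot reverse such a difference, so the kept direction is no test of it. Over the named members and the alternatives that leave out no single array, 211 of 238 calls held in CBDL against sham, 91 of 111 in norUDCA-fed CBDL against CBDL and 65 of 70 in norUDCA-fed CBDL against sham, and the rest kept their direction but lost the call. Taking the mean of a gene's rows changes no member's value, since each has 1 row. This alternative is among those counted, so it adds calls that were nearly certain to hold. Signals below 5.2, where 36 members lie, limit what can be seen, and 3 arrays a group limit the rest.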

Other observations

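On the other rows with several symbols, the row of Gstp1 and Gstp2 had signals of 9.72, 9.99 and 9.98 in norUDCA-fed CBDL, 9.80, 9.72 and 9.87 in CBDL and 10.27, 10.43 and 10.12 in sham. The CBDL arrays lay below every sham array, a difference of -0.47 (limma adjusted p over all rows 0.0419). The row of Ugt1a1, Ugt1a6a, Ugt1a7c, Ugt1a6b and Ugt1a5, bilirubin- and phenol-conjugating enzymes that share exons, had signals of 6.72, 6.86 and 6.6 in norUDCA-fed CBDL, 6.18, 6.50 and 6.30 in CBDL and 6.29, 6.86 and 6.50 in sham. The 3 groups overlapped in part, and the row was called in no comparison. The row of Gstm5 and 4933431E20Rik had signals of 9.51, 9.68 and 9.62 in norUDCA-fed CBDL, 9.24, 9.33 and 9.40 in CBDL and 9.58, 9.51 and 9.54 in sham.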
